A study of Mus musculus with 32 samples.

Results

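The 10 genes described here are *Vegfa*, which encodes the main growth factor of blood vessel endothelium, and 9 genes whose products mark endothelial cells or act in them: the receptors *Kdr* and *Flt1*, the TIE receptors *Tek* and *Tie1*, the junction genes *Pecam1* and *Cdh5*, and *Emcn*, *Egfl7* and *Eng*. They were chosen by symbol, with earlier results of these data known, and all 10 were found among the 32544 genes with counts. The other gene lists below were chosen with the same knowledge. Counts of members or listed genes beside a share of all genes are therefore descriptive and test no enrichment. Bulk RNA-Seq of kidney cortex, the outer region of the kidney that holds the glomeruli, covered 32 mice of strain C57BL/6J-Col4a3tm1Dec at 25 weeks of age. Alport mice were Col4a3-/- and lack a collagen chain of the glomerular basement membrane, whereas control mice were Col4a3+/-, so that the controls too carried 1 disrupted copy. Mice of each genotype received vehicle, a purified control diet, or the same diet with nicotinamide riboside (NR), a precursor of the coenzyme NAD+. Each combination of sex, genotype and treatment held 4 mice, which gave 8 groups.

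Vascular endothelial growth factor A binds receptor tyrosine kinases on endothelial cells, where the KDR receptor carries most of the growth and survival signal and the FLT1 receptor binds the ligand tightly and limits how much of it reaches KDR. In the glomerulus the podocyte is a known source of VEGFA, and tubule cells make it too, so that ligand and receptors sit on neighbouring cells of different types. Of the TIE receptors, TIE2, encoded by *Tek*, binds angiopoietins and TIE1 pairs with it, and they govern how quiescent or leaky a vessel is. Because a bulk sample mixes all cells of the cortex, fewer endothelial cells and less RNA per endothelial cell cannot be told apart in any value given here.

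Libraries held 16621944 to 27778797 counts each, with a median of 22071395, so that even the lowest member had at least 383 counts in every mouse. Levels are given as CPM, with library sizes scaled by the trimmed mean of M values (TMM), as mean ± SD of 4 mice unless each mouse is listed. *Col4a3*, the targeted gene, was at 201, 197, 181 and 151 CPM in the 4 male control mice on vehicle and at 56.5, 66.5, 54.6 and 83.2 CPM in the 4 male Alport mice on vehicle. In females the same groups held 160.2, 140.1, 139.5 and 163 CPM and 57.7, 79.2, 59.7 and 60.1 CPM. All Alport mice on vehicle thus lay below all controls on vehicle of their sex, while RNA of the gene was still counted in every Alport mouse. Male controls on NR were at 59.3, 94.1, 75.2 and 159.6 CPM, and the values of mice 1 and 3 lay inside the range of the Alport mice. The ratio of *Col4a3* to its neighbour *Col4a4*, a check chosen after the values were seen, was 0.537 to 0.822 in the 16 control mice and 0.293 to 0.413 in the 16 Alport mice, with no overlap between the genotype labels. *Ddx3y*, a gene of the Y chromosome, was at 48.0 CPM or more in every mouse labelled male and at 1.42 CPM or less in every mouse labelled female.

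Levels of different members were compared only per kilobase of exon, while the most abundant gene of a marker list, where named below, is the one with the highest CPM. In male controls on vehicle *Vegfa* was the most abundant member at 74.7 ± 7.68 CPM per kilobase, followed by *Eng*, a coreceptor for TGF-beta family ligands, at 20.6 ± 0.914 CPM per kilobase. A middle set followed on the same scale, from *Egfl7* (8.55 ± 0.683), *Kdr* (8.13 ± 0.669), *Tie1* (7.54 ± 0.595), *Emcn* (6.96 ± 0.323), *Pecam1* (6.92 ± 0.0645) and *Tek* (6.83 ± 0.227) down to *Cdh5* (5.16 ± 0.708) and *Flt1* (4.31 ± 0.210). Neighbours within that middle set, from *Egfl7* to *Tek*, differed by less than the sum of their SDs, as did *Cdh5* and *Flt1*, whereas *Vegfa* and *Eng* stood clear of the rest. *Vegfa* ranked first, *Eng* second and *Flt1* last in all 8 groups, and the order of the other members changed between groups. In female Alport mice on vehicle, for example, *Vegfa* was at 44.04 ± 5.54, *Eng* at 34.3 ± 2.81 and *Flt1* at 5.07 ± 0.389 CPM per kilobase. *Egfl7* shares 264 exon bases with *Gm20532* on its own strand and fewer with *Agpat2* on the other strand, and its exons also hold *Mir126a*; *Eng* shares 61 exon bases with *Fpgs* on the other strand. Counts of these members may include reads of those neighbours.

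**Figure D1:**
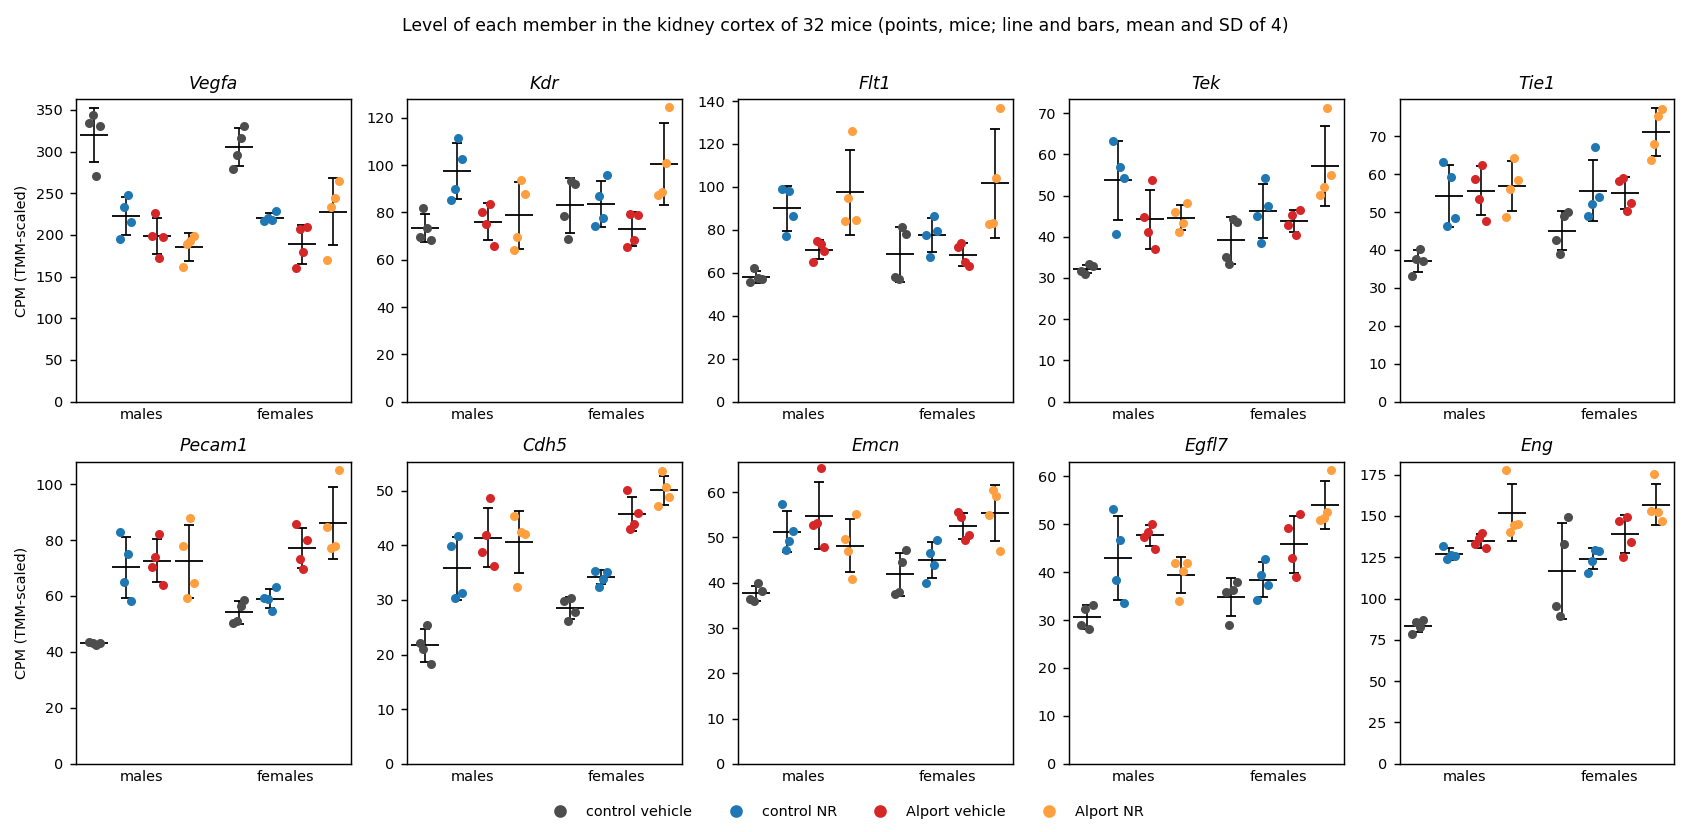
Level of each of the 10 members in kidney cortex, in CPM scaled by TMM, with 1 point per mouse, and the mean and SD of 4 mice as a line with bars, for 8 groups by sex, genotype and treatment. *Vegfa* is highest in the controls on vehicle of both sexes, and most endothelial members are lowest in the male controls on vehicle.

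The first comparison asked how the vessel genes differ between Alport and control cortex without NR. In Alport mice of both sexes *Vegfa* fell and the junction genes rose, while not all of the other endothelial members passed, and fewer of them did in females. The ligand was at 335, 344, 271 and 330.1 CPM in male controls and at 198, 226, 173 and 198 CPM in male Alport mice. Every male Alport mouse was below every male control, and the log2 fold change was -0.60 ± 0.10 (SE; adjusted p = 0.000475, edgeR's quasi-likelihood test with Benjamini-Hochberg adjustment over all genes tested). Female controls held 279, 296, 316 and 331 CPM and female Alport mice 159.7, 207, 179 and 209 CPM, again without overlap (log2 fold change -0.66 ± 0.10, adjusted p = 0.000597).

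Its receptors did not follow the ligand. *Kdr*, the main signalling receptor, was at 69.6, 81.9, 73.6 and 68.5 CPM in male controls and 80.4, 75.02, 83.4 and 65.7 CPM in male Alport mice, and the groups overlapped (log2 fold change 0.14 ± 0.09, adjusted p = 0.228). In females its mean was 83.1 ± 11.6 CPM in controls and 72.97 ± 7.29 CPM in Alport mice (log2 fold change -0.15 ± 0.11, adjusted p = 0.302). *Flt1*, the receptor that also acts as a sink for VEGFA, rose in male Alport mice. It was at 55.7, 62.2, 57.6 and 56.96 CPM in male controls against 64.8, 74.7, 73.5 and 70.1 CPM in male Alport mice, all of them higher (log2 fold change 0.37 ± 0.07, adjusted p = 0.00129). One fit of all 32 mice put that change at 0.28 with an adjusted p of 0.102, so the call for *Flt1* depended on the model. In females *Flt1* had a log2 fold change of 0.03 ± 0.12 (adjusted p = 0.854), and its sign turned without control mouse 1 (-0.05), control mouse 2 (-0.05) or Alport mouse 2 (-0.02).

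The angiopoietin receptor gene *Tek*, which encodes TIE2, was at 31.6, 30.99, 33.3 and 32.9 CPM in male controls and rose to 44.9, 41.3, 53.7 and 37.1 CPM in male Alport mice, where the groups did not overlap (log2 fold change 0.55 ± 0.10, adjusted p = 0.00103). Females gave 39.1 ± 5.72 and 43.8 ± 2.69 CPM for *Tek*, with overlap and an adjusted p of 0.144. *Tie1*, whose product pairs with TIE2, rose in both sexes. It went from 33.3, 37.5, 40.4 and 37.2 CPM in male controls to 58.9, 53.5, 62.4 and 47.7 CPM in male Alport mice (log2 fold change 0.67 ± 0.10, adjusted p = 0.000128). Female controls were at 42.7, 38.97, 48.98 and 49.9 CPM and female Alport mice at 58.2, 58.99, 50.3 and 52.5 CPM, with all Alport mice higher (log2 fold change 0.32 ± 0.09, adjusted p = 0.0164). Without female control mouse 1 the female value for *Tie1* was 0.29 with an adjusted p of 0.0511, and in the fit of all 32 mice it was 0.29 with an adjusted p of 0.0516.

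The largest rises were in junction genes. *Cdh5*, which encodes the adhesion molecule VE-cadherin, was at 22.2, 20.9, 25.4 and 18.2 CPM in male controls and 38.7, 41.8, 48.7 and 36.2 CPM in male Alport mice, close to a doubling with no overlap (log2 fold change 1.02 ± 0.12, adjusted p = 2.29e-05). In females *Cdh5* went from 29.8, 26.1, 30.4 and 27.7 to 50.1, 42.97, 43.9 and 45.9 CPM (log2 fold change 0.72 ± 0.07, adjusted p = 6.47e-05). *Pecam1*, or CD31, is shared with platelets and some leukocytes and is the usual stain for vessels. The 4 male controls lay within a narrow band at 43.5, 43.2, 42.6 and 43.01 CPM, and the male Alport mice spread over 70.4, 73.9, 82.3 and 63.8 CPM (log2 fold change 0.84 ± 0.08, adjusted p = 8.22e-06). Its female values were 50.5, 51.1, 56.5 and 58.5 CPM in controls and 85.9, 73.2, 69.7 and 79.9 CPM in Alport mice, all higher (log2 fold change 0.55 ± 0.08, adjusted p = 0.000442).

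*Eng* stood at 78.5, 85.6, 82.99 and 86.9 CPM in male controls and 133, 137, 139.5 and 130.3 CPM in male Alport mice, wide apart (log2 fold change 0.78 ± 0.07, adjusted p = 2.68e-06). Female controls were uneven for this gene, with mice 1 and 2 at 95.5 and 89.5 CPM and mice 3 and 4 at 133 and 149 CPM. They overlapped the female Alport mice, which were at 125 to 149.5 CPM (log2 fold change 0.29 ± 0.15, adjusted p = 0.155). Without female control mouse 4 the female value was 0.42 with an adjusted p of 0.0374. The split was not confined to *Eng*. Mean log2 CPM of the 9 endothelial members was 5.58 and 5.48 in mice 1 and 2 and 5.83 and 5.85 in mice 3 and 4. *Emcn*, the sialomucin endomucin of capillaries and veins, rose from 37.6 ± 1.75 to 54.8 ± 7.39 CPM in males (log2 fold change 0.63 ± 0.10, adjusted p = 0.000198) and from 41.8 ± 4.81 to 52.5 ± 2.98 CPM in females (0.37 ± 0.09, adjusted p = 0.00607). *Egfl7*, a secreted protein of the vessel wall, rose from 30.6 ± 2.45 to 47.7 ± 2.25 CPM in males and from 34.8 ± 3.96 to 45.8 ± 5.96 CPM in females, with log2 fold changes of 0.73 ± 0.08 and 0.43 ± 0.11 (adjusted p = 1.63e-05 and 0.00815).

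In counts, 9 of the 10 members passed an adjusted p of 0.05 in males, against 51.0% of the 15286 genes tested. Of these, 8 rose, where 26.8% of all genes did, and *Vegfa* fell, where 24.2% did. In females 6 of 10 passed, against 45.8% of 15709 genes, with 5 that rose (24.0% of all genes) and *Vegfa* that fell (21.8%). The median log2 fold change of the 10 members was 0.65 in males and 0.30 in females, and that of all genes tested was -0.00 in both. In females the count was 5 without control mouse 1 and 7 without control mouse 4. Alport mice lay wholly above controls in 8 members and 22.1% of all genes in males, and in 5 members and 20.7% in females. *Vegfa* lay wholly below, as did 28.5% of all genes in males and 23.7% in females. With shares of all genes this large, a call alone sets no member apart.

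Whether the Alport difference itself differed between the sexes was tested as an interaction over the 16 mice on vehicle, as the female minus the male log2 difference. No member passed, at an adjusted p under 0.05 and an interaction of at least 2-fold, where 0.285% of 16152 genes did; without the fold limit 0.532% of genes passed and again 0 members. DESeq2 and the fit of all 32 mice also called 0 members. The 10 interaction values were all negative, from -0.52 for *Eng* to -0.08 for *Vegfa*, with a median of -0.33 against -0.05 over all genes. Of the 10, 8 had an unadjusted p under 0.05, as did 1940 of all 16152 genes. Marker medians were -1.05 for fibroblast, -0.58 for podocyte, -0.57 for immune, -0.44 for mural and 0.05 for proximal tubule genes. Their part in the members' values was not tested. For *Eng* the interaction was -0.52 ± 0.18 with an adjusted p of 0.218, and for *Kdr* it was -0.32 ± 0.15 with an adjusted p of 0.425. The smaller female differences in the endothelial members were therefore not shown to differ from the male ones. The 46 genes passing in all became 25, 21 and 27 without male control mice 1, 2 and 4, 19, 29 and 24 without male Alport mice 1, 2 and 3, 19 and 19 without female control mice 3 and 4, and 30 and 16 without female Alport mice 1 and 4.

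**Figure D2:**
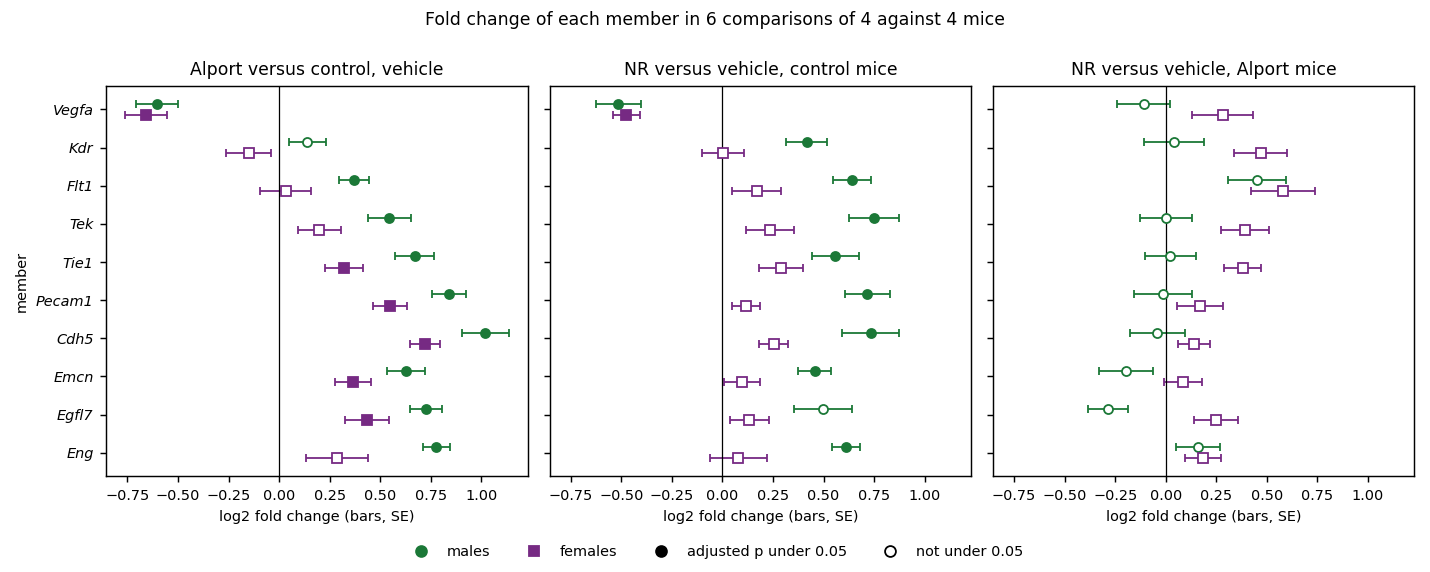
Log2 fold change of each member with its SE, for males (circles) and females (squares), in 6 comparisons of 4 against 4 mice; filled symbols passed an adjusted p of 0.05. *Vegfa* lies left of 0 in Alport versus control and in NR versus vehicle in control mice, and in males most endothelial members lie right of 0 in both. These comparisons use the same controls on vehicle.

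The next comparison asked what NR does in control mice. In male controls on NR the ligand was lower and every endothelial member higher than in male controls on vehicle, whereas in female controls *Vegfa* alone passed the test. *Vegfa* was at 195, 233, 248 and 215 CPM in male controls on NR, all below the male controls on vehicle listed above, with a log2 fold change of -0.51 ± 0.11 (adjusted p = 0.0307). This call was lost without vehicle mouse 1 (-0.49, adjusted p = 0.105), vehicle mouse 2 (-0.48, 0.1003), vehicle mouse 4 (-0.50, 0.0873) or NR mouse 1 (-0.46, 0.0765). In female controls on NR *Vegfa* was at 217, 220.4, 218 and 228 CPM, a tight set below all 4 female controls on vehicle (log2 fold change -0.48 ± 0.07, adjusted p = 0.00298). The female call held without any 1 mouse, and it was not made in the fit of all 32 mice (-0.47, adjusted p = 0.114).

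Among the VEGF receptors of male controls on NR, *Kdr* was at 85.5, 90.04, 111 and 102 CPM and *Flt1* at 99.2, 77.04, 97.9 and 86.3 CPM. All 4 mice were above the vehicle mice for both genes (log2 fold changes 0.42 ± 0.10 and 0.64 ± 0.09, adjusted p = 0.0435 and 0.00985). Of all genes tested, 7.35% lay wholly above the vehicle mice and 6.01% wholly below, as *Vegfa* did. *Tek* was at 63.3, 40.6, 56.9 and 54.2 CPM and *Tie1* at 63.2, 46.3, 59.2 and 48.3 CPM, again above all vehicle mice (log2 fold changes 0.75 ± 0.12 and 0.56 ± 0.12; adjusted p = 0.0147 and 0.0297). NR mice 1 and 3 gave the highest values of both TIE receptor genes. *Pecam1* was at 83.05, 65.1, 74.9 and 58.1 CPM, *Cdh5* at 39.8, 30.3, 41.7 and 31.2 CPM and *Eng* at 132, 124, 126 and 126 CPM, with log2 fold changes of 0.72 ± 0.11, 0.73 ± 0.14 and 0.61 ± 0.07 (adjusted p = 0.0120, 0.0231 and 0.00260). *Emcn* rose to 51.3 ± 4.43 CPM (log2 fold change 0.46 ± 0.08, adjusted p = 0.0202), and *Egfl7*, at 42.96 ± 8.74 CPM and a log2 fold change of 0.50 ± 0.14, missed the threshold (adjusted p = 0.0775). *Egfl7* passed in DESeq2 (0.50, adjusted p = 0.0235) and in the fit of all 32 mice (0.49, adjusted p = 0.0141), where *Kdr* did not pass (0.41, adjusted p = 0.0598). In all, 9 of 10 members passed, where 4.53% of the 14696 genes tested did. They were 8 that rose, against 3.07% of all genes, and *Vegfa*, which fell, against 1.46%. The median log2 fold change of the members was 0.59 and that of all genes -0.00. This count rested on single mice: it was 1 without vehicle mouse 1, 3 without vehicle mouse 2, 8 without vehicle mouse 3, 4 without vehicle mouse 4, 5 without NR mouse 1, 9 without NR mouse 2, 6 without NR mouse 3 and 10 without NR mouse 4. The genes called in all moved with it, from 666 to 74, 114, 429 and 146 without vehicle mice 1, 2, 3 and 4, to 230 and 184 without NR mice 1 and 3, and to 1886 without NR mouse 4. *Eng* was the member called in all 8 of these fits, and every member kept its direction in each of them, with *Pecam1*, for example, between 0.62 and 0.81.

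In female controls NR moved fewer of these genes past the threshold. Of 10 members, *Vegfa* was called, against 6.18% of 14951 genes in either direction and 2.27% lower, and the members' median was 0.13, against -0.01 over all genes. The other 9 members had positive log2 fold changes, the largest for *Tie1* (0.29 ± 0.11, adjusted p = 0.131) and *Cdh5* (0.25 ± 0.07, adjusted p = 0.0555). *Cdh5* was at 35.2, 32.4, 33.8 and 35.05 CPM on NR, all above the vehicle mice, and passed in DESeq2 (adjusted p = 0.0317). Of all genes tested, 8.53% lay wholly above the vehicle mice and 6.08% wholly below, as *Vegfa* did. *Kdr* had means of 83.1 ± 11.6 CPM on vehicle and 83.7 ± 9.65 CPM on NR in female controls. *Kdr* and *Eng*, at log2 fold changes of 0.00 and 0.08, were near 0 and turned negative in some fits with 1 mouse left out, to -0.08 and -0.03 without vehicle mouse 2. Whether NR acts differently in male and female controls was not tested. The 924 genes called in all fell to 395 without NR mouse 1 and were 505, 461, 575, 440 and 502 without vehicle mice 2, 3 and 4 and NR mice 3 and 4.

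In Alport mice NR was compared with vehicle in the same way. In males NR left no member past the threshold, and in females all 10 members were higher on NR, with no call. *Vegfa* was at 161, 189, 193 and 198 CPM in male Alport mice on NR, overlapping the male Alport mice on vehicle (log2 fold change -0.11 ± 0.13, adjusted p = 0.949). *Flt1* was at 83.9, 94.99, 126 and 84.8 CPM, above all vehicle mice, with mouse 3 the highest (log2 fold change 0.45 ± 0.15, adjusted p = 0.872). *Eng* was at 178, 140.3, 144 and 145 CPM, also above all vehicle mice and with mouse 1 far above the others, and *Egfl7*, at 41.8, 34.00, 40.2 and 41.8 CPM, lay below all of them (log2 fold changes 0.16 ± 0.11 and -0.28 ± 0.10; adjusted p = 0.939 and 0.905). So 2 members lay wholly above and 1 wholly below the vehicle mice, against 1.97% and 1.45% of the genes tested. edgeR called 0 of 10 members and 0% of 15500 genes in this comparison. At an unadjusted p under 0.05 there were 2 members and 785 genes, and DESeq2 called 0 members and 68 genes. Without NR mouse 1 the number of genes called was 380, and without NR mouse 3 it was 1, while 0 members passed without any 1 mouse. The other members had log2 fold changes from -0.20 for *Emcn* to 0.04 for *Kdr*, and those of *Pecam1*, *Cdh5*, *Kdr*, *Tek* and *Tie1* were small enough to change sign when 1 mouse was left out.

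Female Alport mice on NR held the highest mean of *Kdr*, *Flt1*, *Tek*, *Tie1*, *Pecam1*, *Cdh5*, *Emcn*, *Egfl7* and *Eng* of all 8 groups. Some of these leads were well within the SDs. *Emcn* was at 55.4 ± 6.13 CPM, against 54.8 ± 7.39 in male Alport mice on vehicle. *Kdr* was at 100.4 ± 17.3 CPM, against 97.3 ± 11.8 in male controls on NR. *Flt1* was at 101.7 ± 25.3 CPM, against 97.4 ± 19.8 in male Alport mice on NR. The share of all genes highest in this group was not computed. *Kdr* was at 65.3, 79.4, 68.2 and 79.00 CPM on vehicle and 87.3, 88.7, 101 and 125 CPM on NR, with no overlap (log2 fold change 0.47 ± 0.13, adjusted p = 0.149). *Flt1* went from 72.1, 73.7, 64.99 and 63.02 CPM to 82.8, 83.3, 104 and 137 CPM, where mouse 4 was the highest and all 4 were above the vehicle mice (log2 fold change 0.58 ± 0.16, adjusted p = 0.141). Both TIE receptors were also wholly above the vehicle mice. *Tek* was at 50.2, 51.97, 71.3 and 55.00 CPM and *Tie1* at 63.7, 67.9, 75.5 and 77.3 CPM on NR (log2 fold changes 0.39 ± 0.12 and 0.38 ± 0.09; adjusted p = 0.174 and 0.121). *Vegfa* was at 170.4, 233, 244 and 264 CPM, higher than on vehicle in mice 2, 3 and 4 and within the vehicle range in mouse 1 (log2 fold change 0.28 ± 0.15, adjusted p = 0.372). The median of the 10 log2 fold changes was 0.26, against 0.00 over all genes.

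The female Alport test called 0 of 10 members in edgeR, against 0.477% of 15712 genes, with 5 members and 2627 genes at an unadjusted p under 0.05. The 4 members that lay wholly above the vehicle mice compare with 5.14% of all genes. DESeq2 called 3 members, *Kdr* (0.47, adjusted p = 0.0365), *Flt1* (0.58, adjusted p = 0.0246) and *Tie1* (0.38, adjusted p = 0.0183). The fit of all 32 mice called *Flt1* alone (0.57, adjusted p = 0.0366). Both fits also called more genes in all than edgeR's 0.477%, and those counts are given with the processing alternatives below. No fit that left out 1 mouse called a member. The 75 genes called in all became 11, 15 and 9 without vehicle mice 1, 3 and 4, and 166, 35 and 119 without NR mice 1, 3 and 4. Comparisons of NR with vehicle and of Alport with control share the Alport mice on vehicle, so their values stand side by side here and were not set against each other.

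Interaction tests over the 16 mice of a sex asked whether NR acted differently in Alport and control mice. In males 0 members and 0% of 15800 genes passed in edgeR, with 9 members and 1398 genes at an unadjusted p under 0.05. The members' median was -0.61, against 0.01 over all genes. Marker medians in this test were -1.45 for fibroblast, -1.15 for immune, -0.34 for podocyte and 0.26 for proximal tubule genes. The part of these cell types in the members' values was not tested. The 9 endothelial members had negative interactions, from -0.80 for *Egfl7* (SE 0.18, adjusted p = 0.400) to -0.21 for *Flt1* (adjusted p = 0.764), and *Vegfa* had a positive one (0.39 ± 0.17, adjusted p = 0.539). DESeq2 called *Emcn*, *Egfl7* and *Eng* and 19 genes in all. Without male Alport NR mouse 1, edgeR called 6 members (*Pecam1*, *Cdh5*, *Tek*, *Emcn*, *Egfl7* and *Eng*) and 782 genes, with *Eng* at -0.55 (adjusted p = 0.00712). In females 0 members and 0% of 16064 genes passed in edgeR, and 2 members and 1521 genes had an unadjusted p under 0.05. *Vegfa* had the largest female interaction at 0.74 ± 0.16 (adjusted p = 0.323). It passed in DESeq2 (0.74, adjusted p = 0.0178; 29 genes in all) and in edgeR without female Alport NR mouse 1 (0.85, adjusted p = 0.0252; 45 genes in all), where fits without female Alport vehicle mice 2 and 3 and NR mice 3 and 4 gave 2, 1, 1 and 3 genes, and the next largest was that of *Kdr* (0.45 ± 0.18, adjusted p = 0.466).

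Control mice on vehicle also showed how the members differ between the sexes in control cortex. *Pecam1*, *Cdh5*, *Tek*, *Tie1* and *Eng* were higher in females, with log2 fold changes of 0.36 ± 0.07, 0.42 ± 0.10, 0.31 ± 0.10, 0.31 ± 0.09 and 0.51 ± 0.14 (adjusted p = 0.00237, 0.00789, 0.0341, 0.0251 and 0.0178). These 5 of 10 compare with 31.7% of 14990 genes called in either direction and 15.9% called higher in females, and the members' median was 0.29, against 0.02 over all genes. All 4 females were above all 4 males for *Pecam1*, *Cdh5*, *Tek* and *Eng*, as they were for 14.2% of all genes tested. *Vegfa* means were 319.9 ± 32.9 CPM in males and 305 ± 22.8 CPM in females (log2 fold change -0.04 ± 0.09, adjusted p = 0.755). The 5 calls became 3, 4, 4 and 3 without male mice 1, 2, 3 and 4, and 6, 8, 3 and 3 without female mice 1, 2, 3 and 4; *Pecam1*, *Cdh5* and *Eng* passed in all 8 of these fits. Markers of some other cell types were also higher in female controls, with 8 of 12 podocyte genes (median 0.56), 6 of 8 mural genes (0.44) and 5 of 8 fibroblast genes (0.78) called. Of 12 proximal tubule genes, 1 was called higher and 3 lower. The part of these markers in the sex difference of the members was not tested. This comparison and the Alport comparisons use the same control mice.

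The other ligands and receptors of the VEGF family were followed as a list of 7 genes. In male Alport mice 4 of the 6 tested rose, against 26.8% of all genes, and in female Alport mice 3 of 7 rose, against 24.0%. The coreceptor gene *Nrp2* rose most, from 13.2 ± 1.31 to 34.3 ± 7.52 CPM in males (log2 fold change 1.46 ± 0.15, adjusted p = 9.01e-06) and by 0.81 ± 0.17 on the log2 scale in females (adjusted p = 0.00304). *Flt4*, the receptor for VEGFC, and *Nrp1* also rose in both sexes, and *Figf*, which encodes VEGFD, rose in males (0.61 ± 0.14, adjusted p = 0.00371). The ligand genes *Vegfb* and *Vegfc* did not pass in either sex, and *Pgf* was under 1 CPM in all 8 group means. On NR, male controls had higher *Flt4* (0.82 ± 0.14, adjusted p = 0.0154) and *Nrp2* (0.97 ± 0.15, adjusted p = 0.0120).

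Of the angiopoietin system, *Angpt2*, the ligand that loosens vessels, rose in Alport mice, from 1.33, 1.97, 1.48 and 2.33 to 7.70, 5.52, 9.31 and 4.70 CPM in males (log2 fold change 2.02 ± 0.26, adjusted p = 6.19e-05) and from 2.69 ± 1.10 to 5.83 ± 0.643 CPM in females (1.16 ± 0.26, adjusted p = 0.00414). *Angpt1*, the stabilising ligand of TIE2, fell in female Alport mice (-0.54 ± 0.11, adjusted p = 0.00299) and had a male value of -0.25 ± 0.13 (adjusted p = 0.129). *Ptprb*, the phosphatase that acts on TIE2, rose in male Alport mice (0.63 ± 0.13, adjusted p = 0.00176) and in male controls on NR (0.62 ± 0.10, adjusted p = 0.0120). In 25 genes of signal transduction downstream of VEGF, 12 rose and 3 fell in Alport mice of each sex, against 26.8% and 24.2% of all genes in males and 24.0% and 21.8% in females, with a median of 0.15 in males and 0.12 in females. *Hspb1* and *Prkcb* rose most, and *Pik3ca* fell most among those that passed, in both sexes.

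Further endothelial genes outside the 10 members were mostly higher in Alport mice. Among 21 tested genes of a list of 22, 19 rose in male Alport mice, against 26.8% of all genes, and 13 in female Alport mice, against 24.0%, and the medians were 0.68 and 0.49, with *Cd93* the highest at 1.26 and 1.08. In male controls on NR 7 of 21 rose, against 3.07% of all genes, with a median of 0.54, led by *Cd34* (0.93) and *Cd93* (0.86), and in female controls 1 of 21 rose (*Esam*, 0.46), where 584 of all 14951 genes did. Of 14 tested genes of endothelial subtypes, 12 rose in Alport males and 7 in Alport females, for the same shares of all genes, with *Selp* at 2.90 and 2.06. In male controls on NR 2 of 12 tested subtype genes rose, against 3.07% of all genes. They were *Plvap*, the diaphragm gene of fenestrated capillaries, and *Slc14a1*, of descending vasa recta (1.02 and 2.03). Of the 15 listed, 2 were at 0 in at least 1 of the 32 mice. Known targets of the hypoxia factor HIF, which also drives *Vegfa*, had 1 rise (*Adm*, 0.52) and 4 falls among 10 tested in male Alport mice, and 5 falls in females, led by *Bnip3* (-0.86 and -0.82) and against the 24.2% and 21.8% of all genes that fell. *Ndrg1* of the HIF list rose in male controls on NR (0.62, adjusted p = 0.0430). Of the 10 HIF targets tested in controls on NR, 9 in males and 8 in females had positive log2 fold changes. Their medians were 0.27 and 0.12, beside *Vegfa* at -0.51 and -0.48, so there the list and *Vegfa* went opposite ways. In Alport mice on NR all 10 HIF targets had positive log2 fold changes in each sex, with medians of 0.24 in males and 0.37 in females, beside *Vegfa* at -0.11 and 0.28, all given as values without a call. The part of HIF in the level of *Vegfa* was not tested.

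Across the 32 mice the 9 endothelial members were positively correlated, with Pearson r of log2 CPM between 0.248 and 0.916 over their 36 pairs (median 0.726). After each group's mean was taken off, r lay between -0.0973 and 0.712 (median 0.380), with *Flt1* and *Emcn* the lowest pair. *Vegfa* had r from -0.740 to 0.180 against the 9 genes (median -0.542), and from -0.245 to 0.543 (median 0.0393) after the group means were taken off. The mean log2 CPM of the 9 was 5.36, 5.44, 5.45 and 5.40 in the 4 male controls on vehicle and 5.82 to 6.15 in male controls on NR. Among 14044 genes the ones most like that mean over the 32 mice were *Plpp1* (r = 0.936), *Mmrn2* (0.932), *Adgrl4* (0.918), *Flt4* (0.914) and *Dysf* (0.912). Those most like *Vegfa* were *Pde4c* (r = 0.902), *Rapgef3* (0.875), *Tmem25* (0.8697), *Mlxipl* (0.863) and *Abcc6* (0.8597). With group means taken off, r was 0.710 (*Dysf*) to 0.826 (*Flt4*) for the 5 genes most like the mean of the 9. For the 5 most like *Vegfa* it was 0.585 (*Abcc6*) to 0.833 (*Pde4c*). These r describe mice that share groups and are given without a test.

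Markers of other cell types differed between the same groups. The summed level of 12 podocyte markers, of which *Podxl* is the most abundant and is also made by endothelium, was 668 ± 36.4 CPM in male controls and 1246 ± 208 CPM in male Alport mice on vehicle. In females the sums were 900.3 ± 36.6 and 1314 ± 71.9 CPM. Of the 12 podocyte genes 10 rose in male Alport mice, against 26.8% of all genes, and 9 in female Alport mice, against 24.0%. All 12 proximal tubule markers fell in both sexes, their sum moving from 22994 ± 976 to 10316 ± 1842 CPM in males and from 19832 ± 1319.96 to 9952 ± 2108 CPM in females, with *Slc34a1* the most abundant. Distal nephron markers, with *Umod* the most abundant, had 6 of 10 that fell in each sex, against 24.2% of all genes in males and 21.8% in females.

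Beside the higher endothelial members of Alport mice, 12 immune cell markers summed to 184, 182, 197 and 209.8 CPM in male controls and 1509, 1473, 1609 and 1208 CPM in male Alport mice, with 11 that rose. Female sums were 200.03, 209, 405 and 269 CPM and 1809, 1009, 1529 and 1536 CPM, with 10 that rose; *Cd74* was the most abundant and 1 marker was at 0 in at least 1 of the 32 mice. All 8 fibroblast markers rose in both sexes, from 76.8 ± 9.54 to 1102 ± 221 CPM in males and from 127 ± 35.8 to 955 ± 239 CPM in females, with *Col1a2* the most abundant. Of 8 mural cell markers, of which *Rgs5* is the most abundant, 7 rose in each sex, and these counts too stand against 26.8% of all genes in males and 24.0% in females. Platelet genes, which bear on *Pecam1*, summed to 10.3 ± 0.687 CPM in male controls and 8.51 ± 1.14 CPM in male Alport mice, and 2 of these 5 genes were at 0 in at least 1 of all 32 mice. Their most abundant gene *Itga2b* fell in males (-0.40, adjusted p = 0.0485), and *Pf4*, which macrophages also make, rose in both sexes. The part of these cell types in the levels of the 10 members and of the other endothelial genes, *Cd93* and *Selp* among them, was not tested.

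Male controls on NR, in which the endothelial members were higher, also had higher fibroblast markers, with 158, 165, 144 and 97.2 CPM against 66.8, 76.4, 74.5 and 89.7 CPM on vehicle and 4 of 8 genes that rose (*Dcn*, *Fbln1*, *Pdgfra* and *Col1a2*), against 3.07% of all genes. Their immune sums were 245, 438, 225 and 221 CPM, where mouse 2 stood apart, and 2 of 11 genes rose (*C1qa* and *C1qb*), against the same share. Mural genes *Pdgfrb* and *Tagln* rose as well. The podocyte sum was 734 ± 81.04 CPM, against the 668 ± 36.4 CPM on vehicle. Proximal tubule sums were 15834, 21308, 17230.3 and 21719 CPM, lowest in mice 1 and 3, which also had the highest mean of the 9 endothelial members. Female controls on NR gave 133 ± 18.2 CPM for fibroblast and 269 ± 34.5 CPM for immune markers, against 127 ± 35.8 and 271 ± 94.4 CPM on vehicle. The part of these markers in the NR result was not tested.

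In Alport mice on NR the immune sums were 2088, 759, 657 and 843 CPM in males, where mouse 1 exceeded the vehicle mice. Mouse 1 held the highest *Eng*, *Cdh5* and *Egfl7* of its group, and the lowest *Vegfa*, *Kdr*, *Flt1* and *Tie1*. Its fibroblast sum of 1741 CPM was also the highest of the group (1741, 324, 300.1 and 544 CPM). Proximal tubule sums were 6309, 16348, 4894 and 16122 CPM. Mouse 3, the lowest, held the highest *Kdr*, *Flt1*, *Tie1* and *Pecam1* of the group and the lowest *Emcn*. Females on NR gave immune sums of 1381, 933, 468 and 231 CPM and fibroblast sums of 943, 821, 363 and 222 CPM. Female mouse 4, lowest in both sums, held the highest *Vegfa*, *Kdr*, *Flt1*, *Tie1*, *Pecam1* and *Egfl7* of its group, and the lowest *Emcn* and *Eng*. Their part in the values of the members was likewise not tested.

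Because most endothelial members rose in male Alport mice and in male controls on NR, their promoters were searched for letters that known endothelial factors bind. Both comparisons use the same male controls on vehicle, so their shared direction was not read as separate evidence. Promoter sequences, 300 bases around a gene's start, came from RefSeq on GRCm38.p6 and were found for 8 of the 10 members, as 11 promoters; *Pecam1* and *Cdh5* had no entry. The motif AGGAAG, read on both strands and so also as CTTCCT, is a core that ETS factors bind, and ACGTG is one that HIF binds. Both were picked after the values were seen. AGGAAG occurred in 6 of the 11 promoters, from 5 genes (*Flt1*, *Tie1*, *Emcn*, *Egfl7* and *Eng*), against 35.4% of all 32851 promoters. *Egfl7* has 3 of the 11 promoters and counts more than once among the 6. By gene it was 5 of 8, against 38.4% of 27025 genes. ACGTG occurred in 1 of 11, at a second start of *Vegfa*, against 19.6%. The promoters of *Flt1* (chr5:147725962-147726261, minus strand), *Tie1* (chr4:118489800-118490099, minus strand) and *Eng* (chr2:32646345-32646644, plus strand) are printed 5′ to 3′ as examples for receptors of different families, with the ETS letters in capitals. A match describes letters and not a bound site.
Flt1 promoter: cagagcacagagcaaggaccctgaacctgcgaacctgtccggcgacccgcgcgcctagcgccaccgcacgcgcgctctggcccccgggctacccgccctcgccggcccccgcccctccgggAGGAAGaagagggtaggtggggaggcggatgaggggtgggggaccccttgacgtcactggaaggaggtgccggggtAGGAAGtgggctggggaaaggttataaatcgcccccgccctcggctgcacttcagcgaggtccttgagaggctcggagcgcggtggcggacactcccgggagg
Tie1 promoter: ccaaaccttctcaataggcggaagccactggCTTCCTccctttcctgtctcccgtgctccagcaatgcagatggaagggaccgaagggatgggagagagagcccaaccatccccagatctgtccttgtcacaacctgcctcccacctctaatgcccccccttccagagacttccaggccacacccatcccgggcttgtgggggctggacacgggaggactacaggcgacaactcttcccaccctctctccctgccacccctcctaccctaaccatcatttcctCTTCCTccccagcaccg
Eng promoter: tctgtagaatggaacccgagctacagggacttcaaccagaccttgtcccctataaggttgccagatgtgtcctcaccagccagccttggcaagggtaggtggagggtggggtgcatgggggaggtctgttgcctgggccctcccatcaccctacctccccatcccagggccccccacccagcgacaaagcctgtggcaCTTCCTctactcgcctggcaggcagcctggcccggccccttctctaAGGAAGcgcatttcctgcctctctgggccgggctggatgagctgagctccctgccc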

How the data were processed

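Poly(A)-selected RNA of kidney cortex was sequenced for 32 mice. The authors deposited 2 tables of 32544 genes: raw counts, and log10 values, which equalled log10 of CPM plus 1 and were used only to check the counts. The paper's methods name BioJupies for alignment and processing of the reads, and the submitters' processing notes name genome build mm10. The aligner and counter, their versions, the annotation and the strand setting are not given in the sources used here. The members and lists were chosen with earlier results of these data known.

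The counts were tested with edgeR 4.0.16 (limma 3.58.1, R 4.3.3): genes under about 10 counts were left out by filterByExpr, libraries were scaled by TMM, glmQLFit and glmQLFTest were run on the groups of each comparison, and p-values were adjusted by Benjamini-Hochberg over all genes tested and called under 0.05, with a limit of 2-fold for the sex-genotype interaction. Levels are CPM with TMM-scaled library sizes. The code was tested on simulated data. Named genes were all members, the VEGF and angiopoietin lists, *Col4a3* and *Ddx3y*; of other lists, those passing where 5 or fewer did, otherwise the 2 that rose most and the 2 that fell most, plus the first and most abundant marker; and the 5 genes most like *Vegfa* and the mean of the 9 endothelial members, among genes with a mean of at least 1 CPM. Alternatives were DESeq2 1.42.0, RLE size factors, no filter on low counts, 1 fit of all 32 mice, a replicate block, no fold limit on the sex interaction, each mouse left out in turn and, chosen after seeing the data, robust empirical Bayes. Exon lengths and overlaps came from GENCODE vM21.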

Additional observations from a re-analysis of the deposited data

Results flagged for a closer look

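A Dixon test on the 4 mice of each group marked 3 values of members as standing apart: *Egfl7* at 61.4 CPM in female Alport NR mouse 4, the highest of its group, *Eng* at 178 CPM in male Alport NR mouse 1, also the highest, and *Vegfa* at 271 CPM in male control vehicle mouse 3, the lowest. Chance flags about 1 in 20 groups, and 10 members in 8 groups were looked at. All 3 mice were kept, and leaving each out is among the alternatives tried.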

How the results depend on the processing

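Of 100 results, 1 for each member in each comparison, 60 kept their sign and call under every alternative and 40 changed in at least 1. Over all 1640 pairs of a result and an alternative, 1535 were unchanged, 48 lost a call, 24 gained one and 33 changed sign, 31 of these in fits with 1 mouse left out. The direction of *Vegfa* and of every member called in Alport mice was kept throughout. The cause of these changes was not tested. With 4 mice per group, some differences in members well under 2-fold missed the threshold and others passed. The effect of group size or depth on the calls was not tested.

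Members called in NR against vehicle in male controls were 9, with 1 to 10 in fits with 1 mouse left out, and genes called were 666, with 74 to 1886 there and 1626 in DESeq2. In female controls the 924 genes were 395 to 809 with 1 mouse left out, 1460 in DESeq2 with 2 members and 18 in the fit of all 32 mice with 0 members. In female Alport mice on NR the 75 genes were 9 to 166 with 1 mouse left out, 695 in DESeq2 with 3 members, 116 without the low-count filter and 253 in the fit of all 32 mice with 1 member. In male Alport mice on NR the 0 genes were 0 to 380 with 1 mouse left out, 68 in DESeq2 and 88 in the fit of all 32 mice.

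For females against males the 5 members were 3 to 8 with 1 mouse left out and 3 in the fit of all 32 mice, which called 2799 genes in place of 4756. For the sex-genotype interaction the 46 genes were 16 to 59 with 1 mouse left out, 115 in DESeq2, 4 in the fit of all 32 mice and 86 with no fold limit. For the NR-genotype interaction in males members were 0 to 6 and genes 0 to 782 with 1 mouse left out, with 3 members and 19 genes in DESeq2 and 1 gene in the fit of all 32 mice. In females they were 0 to 1 and 0 to 45, with 1 member and 29 genes in DESeq2 and 3 genes without the low-count filter.

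Signs turned, with 1 mouse left out, in values near 0. For Alport against control in females *Flt1* was -0.0525 to 0.13, and -0.00422 in the fit of all 32 mice. For NR in male Alport mice *Pecam1* was -0.12 to 0.0667, *Cdh5* -0.10 to 0.0506, *Kdr* -0.0527 to 0.13, *Tek* -0.0741 to 0.11 and *Tie1* -0.0446 to 0.0913. For NR in female controls *Kdr* was -0.0789 to 0.0648, and -0.00394 without the low-count filter, and *Eng* -0.0296 to 0.22. For the NR-genotype interaction in females *Pecam1* was -0.0544 to 0.0878, *Emcn* -0.0929 to 0.0631 and *Eng* -0.0555 to 0.19.

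Replicate numbers do not pair mice in the design. A block on replicate number gave 5 members (*Kdr*, *Tie1*, *Emcn* and *Vegfa* were lost) and 309 genes for NR in male controls and 371 genes in female controls, and changed no other count of calls by over 1.5 times. Of 28 correlations between mice of the same number, from -0.167 to 0.261, 5 were over 0.1, and 10 were the best with their own number, so pairing is not shown by the data. Robust empirical Bayes, chosen after seeing the data, called the same members.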
